A study of Rattus norvegicus with 4 samples.

Results

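The mitochondrial ribosomal protein genes encode the proteins of the ribosome that works inside mitochondria. They were taken here as the protein-coding rows of the deposited gene table whose symbol begins with Mrps or Mrpl followed by a number. No measured value enters this rule, but the set was chosen with earlier results of these data known. The rule gave 74 genes of 17768 rows, 14850 of them protein-coding, and all 74 reached 1 normalized read in 2 or more libraries and so were tested. Of these, 26 belong to the small subunit and 46 to the large subunit, and 2 were placed in neither. The members lie on 19 chromosomes, with 12 genes on chromosome 10 and 11 on chromosome 1.

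The values come from RNA sequencing of the NRK-52E cell line, which was established from the kidney of a normal rat and is labelled as proximal tubular epithelium. It comprises 2 libraries with the title lv_nc and 2 with the title lv_Mettl3. The labels state that the overexpressing line was a stable line made with a pLVX-IRES-Puro lentivirus carrying a murine Mettl3 cDNA and kept under puromycin. What nc stands for is not given, nor is it stated whether the nc cells carry the same vector. All 4 libraries carry the treatment label untreated. The same culture entries are given for all 4, lv_nc included. They are virus collection at 48 h, puromycin at 0.5 mg/ml for selection and 0.25 mg/ml for maintenance, and 10% serum. Mettl3 encodes the catalytic subunit of the enzyme that writes N6-methyladenosine on RNA, and the study compared cells overexpressing it with the nc cells. Whether the replicates are separate cultures is not stated, and p-values here measure a spread that may be technical.

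Mitochondria keep a small genome whose messages encode core subunits of the respiratory chain and of ATP synthase, and these are translated by a dedicated ribosome. The RNA parts of that ribosome are made inside the organelle, while its proteins are encoded in the nucleus, made in the cytosol and imported. Some of the proteins descend from bacterial ribosomal proteins and others are found only in mitochondria. Proximal tubule cells depend on oxidative phosphorylation to drive solute uptake, and so on this ribosome.

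The promoters of these genes were examined for letters bound by factors with a known role in nuclear genes for mitochondria. Of the 74 genes, 58 had a promoter entry in RefSeq (build GRCr8), a window from 250 bases before to 50 bases after the start. The motif CGCATGCG, the core bound by nuclear respiratory factor NRF1, was present in 6 of these 58 promoters (10.3%), against 1.81% of all 27457 promoters in that table and 3.50% of the 10166 belonging to protein-coding genes tested here. The motif AAGATGGCG, bound by the zinc finger factor YY1, was present in 8 promoters (13.8%), against 1.93% and 3.62%. The motif CCGGAAG, bound by ETS factors such as the GABP complex, was present in 19 promoters (32.8%), against 9.22% and 17.2%. The letters TATAAA of the TATA box were present in 7 (12.1%), against 14.3% and 6.90%. Both strands were searched over the whole window. The NRF1 motif reads the same on both strands, and no motif contains another. At least 1 of the first 3 motifs was found in 29 promoters, against 22.4% of those of protein-coding genes tested. A match is a description of letters and not a measured site. The 30 bases around each NRF1 and YY1 match are shown so that these 2 kinds of promoter can be compared base by base. They are given 5′ to 3′ on the strand of the gene with the motif in capitals.
Mrpl10 (NRF1, chr10:82522379-82522408, plus strand): acccagctctaCGCATGCGgatagctgctt
Mrpl17 (NRF1, chr1:169575735-169575764, minus strand): aggctctgatgCGCATGCGcaagcacccct
Mrpl17 (NRF1, chr1:169575697-169575726, minus strand): ccgagctactgCGCATGCGtcctctggaaa
Mrpl22 (NRF1, chr10:42845871-42845900, plus strand): gcctcggactgCGCATGCGtgcaggcagcc
Mrpl32 (NRF1, chr17:55260579-55260608, plus strand): tttgacctgtgCGCATGCGcagggaacctg
Mrpl44 (NRF1, chr9:88554908-88554937, plus strand): agaagcacttgCGCATGCGcactatgctag
Mrps18b (NRF1, chr20:2842976-2843005, plus strand): tccttgtccggCGCATGCGcagtcgttctt
Mrpl37 (YY1, chr5:127074942-127074971, minus strand): tgcccgggcaAAGATGGCGgcgtccaggta
Mrpl42 (YY1, chr7:32028484-32028513, minus strand): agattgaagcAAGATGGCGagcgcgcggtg
Mrpl46 (YY1, chr1:142116987-142117016, minus strand): ggaagacggaAAGATGGCGgcgcccatagg
Mrpl50 (YY1, chr5:68668042-68668071, minus strand): gagcttgtcgAAGATGGCGgcgctgtgtgt
Mrps10 (YY1, chr9:21122404-21122433, minus strand): tcagggcaccAAGATGGCGgcgcgcgcagc
Mrps18a (YY1, chr9:22367361-22367390, minus strand): gtgtgttcccAAGATGGCGgccctcagggc
Mrps27 (YY1, chr2:32474223-32474252, plus strand): ggtacgctccAAGATGGCGgcccccatggt
Mrps30 (YY1, chr2:52195867-52195896, minus strand): gcggaggacaAAGATGGCGgctgccaggta

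All 8 YY1 matches lay on the strand of the gene, with their first base between position 1 and position 31 from the annotated start. In 7 of the 8, all but Mrpl42, the next 2 letters were also gc. The motif itself holds the letters ATG, and whether these matches cover start codons of translation was not tested. The 7 NRF1 matches in 6 promoters all began before the start, between -131 and -16, with 2 of them in Mrpl17. The ETS motif occurred 20 times in its 19 promoters, between -139 and 31, and 10 of the 20 matches were on the strand of the gene. Mrps10, Mrps18a and Mrps27 held both the ETS and the YY1 motif, and Mrps18b held the ETS and the NRF1 motif.

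Reads assigned to genes numbered 16133328 (lv_nc replicate 1), 16622255 (lv_nc replicate 2), 15068898 (lv_Mettl3 replicate 1) and 15483756 (lv_Mettl3 replicate 2). Levels are given from here on as normalized read counts in this order of libraries. Mettl3 was at 719, 767, 757 and 700, so the libraries labelled lv_Mettl3 did not lie above the others in the rat gene (limma log2 fold change -0.03 ± 0.11 SE, adjusted p = 0.931). How reads of the murine cDNA were counted is not given in the sources used here. Of the epithelial markers examined, Krt8 lay between 28296 and 33065, while Cdh1, Cdh16, Lrp2, Aqp1, Vil1 and Pax8 were each under 10 in every library, so the proximal tubule label rests on few markers. Ggt1, a brush border enzyme, was at 2412 and 2530 in lv_nc and 3294 and 3757 in lv_Mettl3, and rose by DESeq2 (log2 fold change 0.51, adjusted p = 0.0345) but was not called by limma (adjusted p = 0.378) or edgeR (adjusted p = 0.330). The summed level of 6 fibroblast and smooth muscle markers was 13425 and 17568 in lv_nc and 5150 and 4552 in lv_Mettl3. Of the 6, 4 fell by DESeq2, where 135 of 12601 genes did. Limma and edgeR called 0 of them (smallest adjusted p = 0.214 and 0.130). Tagln, at 3778, 1663, 2160 and 2152, overlapped between groups, and Pdgfra was at 3.10 or less in every library. Summed endothelial and leukocyte markers, 3 genes each, stayed under 55 in every library. The part of these differences in the values below was not tested, and fewer cells of a type cannot be told apart from less RNA per cell.

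Most of the mitochondrial ribosomal protein genes were expressed above the middle of the transcriptome. Among members with a mean of at least 50, the highest level per kilobase was 62.8 times the lowest. Per kilobase of transcript, the members had quartiles of 321 and 695 and a median of 448. The median over protein-coding genes tested was 160, and 66 of the 74 members lay above it. The 83 genes for cytosolic ribosomal proteins had a median of 5982 per kilobase, which is 13.4 times that of the mitochondrial set. Together the 74 genes took 0.297%, 0.269%, 0.283% and 0.286% of the normalized reads, with the lowest share in lv_nc replicate 2.

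Large subunit genes held the highest levels. Mrpl13, a homolog of bacterial L13, was at 1661, 1621, 1452 and 1546 per kilobase. Mrpl12, the protein of the flexible stalk that recruits translation factors, was at 1726, 1106, 1681 and 1693 per kilobase. Mrpl45, which sits by the exit of the tunnel and anchors the ribosome to the inner membrane, was at 1517, 1253, 1698 and 1608 per kilobase. The order of these 3 does not hold in every library, since Mrpl12 was the highest of them in lv_nc replicate 1 and the lowest in lv_nc replicate 2. In the small subunit Mrps24, the homolog of bacterial S3 at the entry of the messenger channel, was at 1116, 963, 1080 and 1048 per kilobase. Mrps6 followed at 1029, 917, 898 and 735 per kilobase. Mrps12, the homolog of the S12 protein of the decoding centre, was at 762, 756, 776 and 760 per kilobase, with its 4 libraries close together.

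The lowest small subunit genes were Mrps5, at 207, 170, 180 and 179 per kilobase, and Mrps31, at 179, 183, 187 and 194 per kilobase. Their ranges overlapped, so the pair has no firm order. The lowest large subunit genes stood much further down. Mrpl1, the homolog of the protein of the L1 stalk, was at 49.3, 32.4, 66.9 and 42.8 per kilobase. Mrpl30 was at 3.00, 43.5, 21.7 and 31.7 per kilobase, which makes lv_nc replicate 1 the low library. Both levels are uncertain. The table also holds LOC100359687, described as similar to mitochondrial L1, at 83.0, 77.5, 33.9 and 109 normalized reads, and reads of such copies can be split between them. The sum of Mrpl1 and this copy was 138, 114, 108 and 156. Mrpl30 overlaps Mitd1 on the other strand over 76963 bases of its annotated span. The lowest member of all was Mrps21l, a copy of the small subunit gene Mrps21 on chromosome 18, at 0, 0.923, 2.12 and 1.03 normalized reads. It was the only member with a mean under 50.

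**Figure D1:**
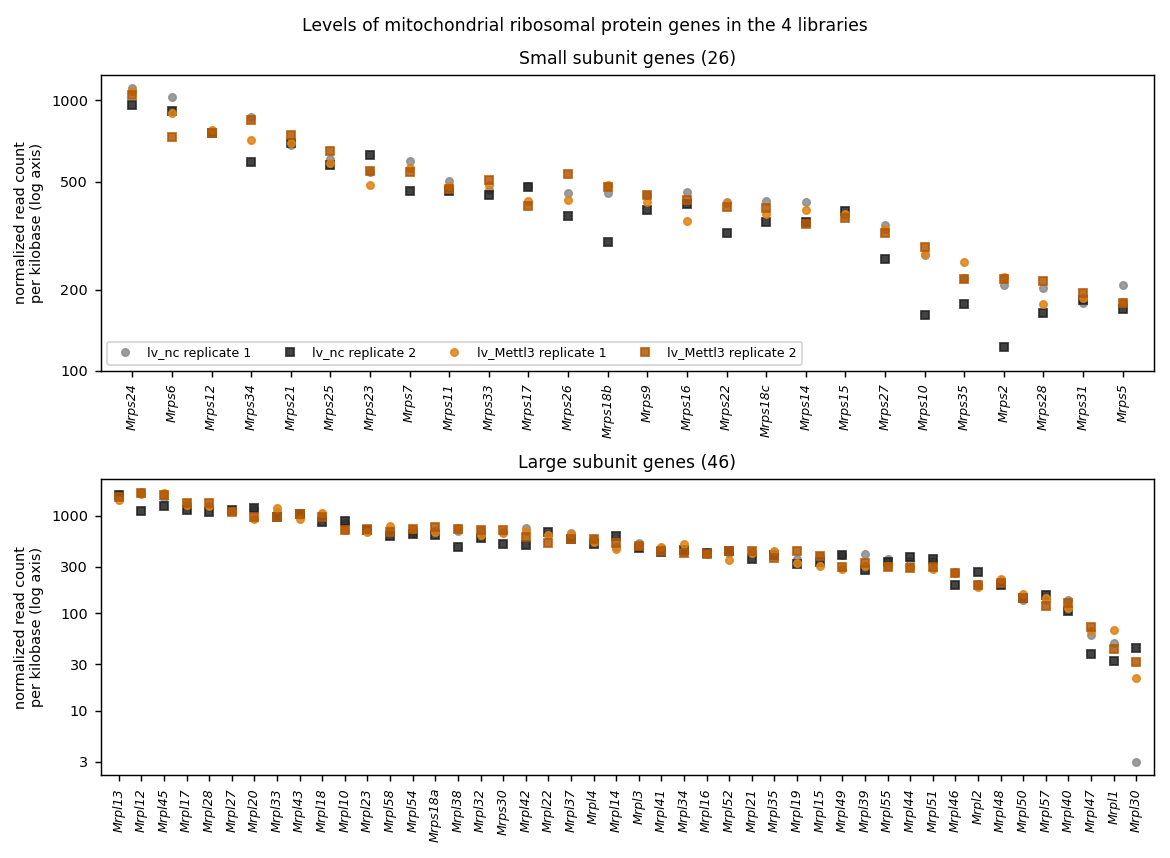
Normalized read count per kilobase (log axis) of 26 small subunit genes (upper panel) and 46 large subunit genes (lower panel), ordered by mean level. Each point is 1 library, in grey and black for lv_nc and in 2 shades of orange for lv_Mettl3. Most genes lie between 100 and 1000, and lv_nc replicate 2 (black squares) is often the lowest point, as in Mrps2, Mrps10 and Mrpl12.

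Comparing lv_Mettl3 with lv_nc, no mitochondrial ribosomal protein gene passed the test. Limma on log2(value + 1) called 0 of 74 members at an adjusted p of 0.05, with 0.0183% of all 16391 genes called (3 genes), and the smallest adjusted p of a member was 0.452. DESeq2 on recovered reads called 0 members, with 2.52% of 12601 genes called, and edgeR called 0, with 0.0305% called. Their smallest adjusted p-values for a member were 0.565 and 0.473. At an unadjusted p under 0.05, limma listed 3 members (all genes 10.5%), edgeR 2 (all genes 10.1%) and DESeq2 0 (all genes 7.44%), and all listed members had lower values in lv_Mettl3.

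The size of differences that the 4 libraries leave possible was limited. The limma 95% interval of the log2 fold change lay within a 2-fold change in either direction for 68 of 74 members and within 1.5-fold for 48. It lay within 1.2-fold for 0. The interval's half-width had a median of 0.38 and ran from 0.23 to 3.10, the last for Mrpl30. The estimate itself was within 1.2-fold for 60 members.

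The median log2 fold change of the members was 0.05, against 0.01 over all genes tested. A positive value was found in 45 of 74 members (60.8%), against 50.7% of all genes. Both lv_Mettl3 libraries lay above both lv_nc libraries in 11 members (14.9%), against 23.5% of all genes, and below them in 14 (18.9%), against 21.5%. The groups overlapped in 49 members.

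**Figure D2:**
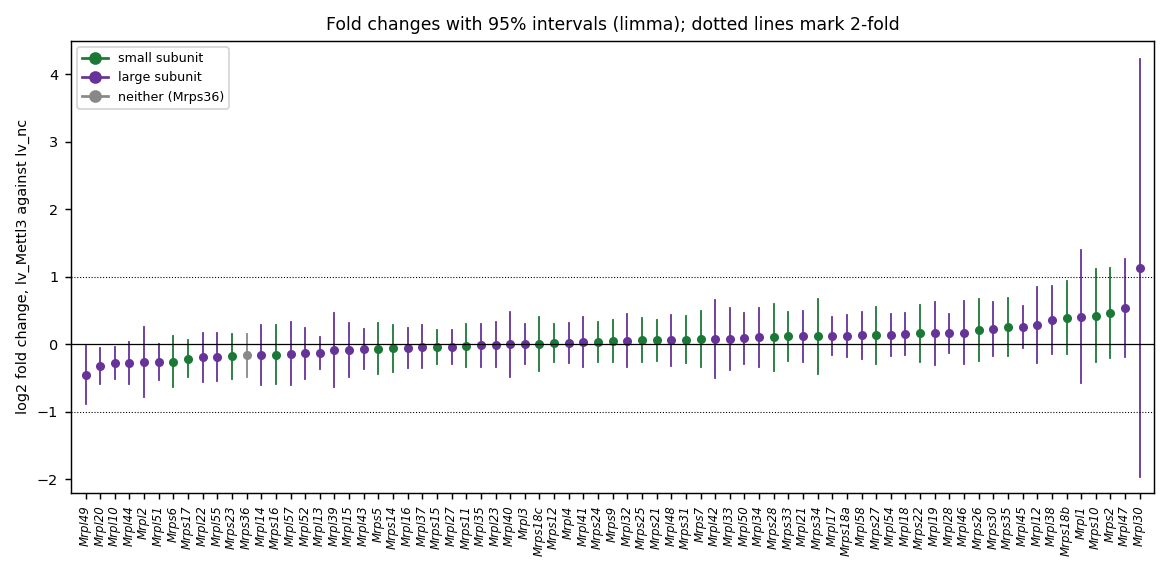
Limma log2 fold change of lv_Mettl3 against lv_nc for 73 genes (Mrps21l, with a mean under 50, is left out), ordered by value, with 95% intervals as vertical lines, green for the small and purple for the large subunit. Dotted lines mark a 2-fold change. Most intervals span 0 and lie between the dotted lines, and Mrpl30 has the widest.

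The small subunit genes had a median log2 fold change of 0.06, with 18 of 26 values positive. Without overlap, 5 genes lay above and 2 below, where 23.5% and 21.5% of all genes did. The 16 homologs of bacterial proteins had a median of 0.01 and the 10 proteins specific to mitochondria one of 0.13, with 9 of these 10 positive. Without lv_nc replicate 2 the median of these 10 was 0.04, with 6 positive, and that of the 26 was -0.04, with 10 positive. None of the 26 passed the test.

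The highest small subunit values were those of Mrps2, Mrps10 and Mrps18b. Mrps2, the homolog of bacterial S2, was at 860 and 506 in lv_nc and 918 and 904 in lv_Mettl3 (log2 fold change 0.47 ± 0.26 SE). Mrps10 was at 329 and 198 in lv_nc and 333 and 352 in lv_Mettl3 (0.42). Mrps18b was at 1007 and 663 in lv_nc and 1081 and 1066 in lv_Mettl3 (0.39). In each of these genes the lv_nc libraries stood far apart while the lv_Mettl3 libraries lay close together, near lv_nc replicate 1. Without lv_nc replicate 2 the 3 values became 0.08, 0.06 and 0.09 on the log2 scale.

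The lowest small subunit values were those of Mrps6 and Mrps17, both homologs of bacterial proteins. Mrps6 was at 719 and 641 in lv_nc and 628 and 514 in lv_Mettl3 (log2 fold change -0.26). Mrps17 was at 681 and 676 in lv_nc and 596 and 573 in lv_Mettl3 (-0.22, limma adjusted p = 0.517). The groups did not overlap in either gene, and in Mrps17 the replicates lay close together. In Mrps24 and Mrps12 the group means lay close together. Mrps24 was at 979, 845, 947 and 919, and Mrps12 at 548, 544, 558 and 547.

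Rat has 3 Mrps18 paralogs, which occupy different places in the ribosome. Mrps18c takes the place of bacterial S18 in the small subunit, Mrps18b lies elsewhere in the small subunit, and Mrps18a lies in the large subunit. Mrps18c was at 343, 287, 309 and 323 (log2 fold change 0.01), and the groups overlapped. Mrps18a was at 619, 568, 614 and 684 (0.13). None of the 3 was called, and Mrps18b had the highest estimate. Mrps30 also has a small subunit name but a place in the large subunit, and was at 997, 764, 984 and 1066 (0.23, and 0.04 without lv_nc replicate 2). Mrps36 is known as a component of the 2-oxoglutarate dehydrogenase complex rather than of the ribosome. It was at 395 and 394 in lv_nc and 353 and 352 in lv_Mettl3 (-0.16), and limma gave an adjusted p of 0.642. The replicates of Mrps36 lay close together and the groups did not overlap.

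The large subunit genes had a median log2 fold change of 0.03, with 26 of 46 values positive. Without overlap, 5 genes lay above and 11 below, against 23.5% and 21.5% of all genes. The 26 homologs of bacterial proteins had a median of 0.01, with 2 above and 8 below, beside the same shares of all genes. The 20 proteins specific to mitochondria had a median of 0.05, with 3 above and 3 below. The median of the 46 was -0.04 without lv_nc replicate 2, with 17 positive. None of the 46 passed the test.

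The 3 members with an unadjusted limma p under 0.05 were all in the large subunit. Mrpl20, whose bacterial homolog binds ribosomal RNA early in assembly, was at 877 and 910 in lv_nc and 694 and 734 in lv_Mettl3 (log2 fold change -0.32 ± 0.10 SE, limma adjusted p = 0.452). Mrpl10, which anchors the stalk, was at 1456 and 1524 in lv_nc and 1226 and 1232 in lv_Mettl3 (-0.28 ± 0.09 SE, limma adjusted p = 0.455). Mrpl49, a protein specific to mitochondria, was at 202 and 200 in lv_nc and 143 and 151 in lv_Mettl3 (-0.45 ± 0.17 SE, limma adjusted p = 0.471). In all 3 the replicates lay close together and the groups stood apart, and leaving out any 1 library kept the value between -0.24 and -0.49. The Mrpl49 value is uncertain, since 551 bases of its annotated span overlap Syvn1 on the other strand, which was at 1409, 1472, 1747 and 1627, and the strand setting of the counting is not given in the sources used here.

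Of the other large subunit genes with both lv_Mettl3 libraries below both lv_nc libraries, 3 were among the lowest fold changes. Mrpl44, which has a fold related to RNase III, was at 523 and 573 in lv_nc and 458 and 445 in lv_Mettl3 (log2 fold change -0.28). Mrpl51 was at 803 and 848 in lv_nc and 675 and 706 in lv_Mettl3 (-0.26). Mrpl2, the homolog of a bacterial protein near the peptidyl transferase centre, was at 209 and 280 in lv_nc and 195 and 208 in lv_Mettl3 (-0.26). The gap between groups was smallest in Mrpl2, where lv_nc replicate 1 lay next to lv_Mettl3 replicate 2. Without lv_nc replicate 2 its value was -0.05.

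Among the large subunit genes with the highest values, Mrpl30 was at 8.79 and 127 in lv_nc and 63.6 and 93.0 in lv_Mettl3 (log2 fold change 1.14 ± 1.21 SE). This estimate rests on lv_nc replicate 1, and without that library it was -0.72. On recovered reads it was 0.20 with DESeq2 and 0.21 with edgeR. Mrpl47 was at 114 and 73.9 in lv_nc and 128 and 140 in lv_Mettl3 (0.54). It overlaps Actl6a on the other strand over 1443 bases, and Actl6a was at 717 and 631 in lv_nc and 882 and 858 in lv_Mettl3. The value of Mrpl47 was 0.23 without lv_nc replicate 2. Mrpl1 was at 54.7, 36.0, 74.2 and 47.5 (0.41, and 0.12 without lv_nc replicate 2), and its groups overlapped. In all, 11 members overlap a gene on the other strand in the table's coordinates, among them Mrpl13 (78 bases, Mtbp), Mrps2 (259 bases, RGD1306233, at 2.77 or less in every library) and Mrps18a (6709 bases, Rsph9, at 11.4 or less). The build of these coordinates is not given in the sources used here.

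By place in the large subunit, the 3 stalk genes present had a median log2 fold change of 0.14 and held members of opposite sign. Mrpl12 was at 2697 and 1728 in lv_nc and 2627 and 2646 in lv_Mettl3 (0.29), while Mrpl10, described above, was lower in both lv_Mettl3 libraries. The value of Mrpl12 was -0.03 without lv_nc replicate 2. Of 7 genes by the exit tunnel, whose median was -0.004, Mrpl45 was at 3344 and 2762 in lv_nc and 3744 and 3546 in lv_Mettl3 (0.26), and Mrpl17 at 1215, 1065, 1208 and 1262 (0.12). The groups did not overlap in Mrpl45, but did in Mrpl17. Of 8 genes of the central protuberance, whose median was 0.10, Mrpl38 was at 910 and 623 in lv_nc and 973 and 956 in lv_Mettl3 (0.36), and Mrpl18, a homolog of a bacterial protein that binds 5S RNA, at 909, 803, 998 and 905 (0.15). Without lv_nc replicate 2 the values were 0.12 for Mrpl45, 0.02 for Mrpl17, 0.08 for Mrpl38 and 0.06 for Mrpl18. None of these genes was called.

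The lv_nc libraries differed from each other in most members. The log2 difference of lv_nc replicate 2 against replicate 1 had an SD of 0.24 over the 71 members whose mean was 100 or more, against 0.16 between the lv_Mettl3 replicates. Over all 10051 genes with such a mean, these SDs were larger, at 0.41 and 0.29. Mrpl30, below that floor, differed far more between the lv_nc libraries, and the 73 members with a mean of at least 50 had an SD of 0.52 with it and 0.24 without it. The value in lv_nc replicate 2 was below that in replicate 1 in 56 of 74 members (75.7%), against 51.1% of those 10051 genes, and the median difference was -0.16 against -0.01. Between the lv_Mettl3 replicates, 36 of 74 members were lower in replicate 2.

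Of the 74 members, 42 (56.8%) had their lowest value in lv_nc replicate 2, against 37.8% of genes with a mean of at least 100. Another 5 had it in lv_nc replicate 1, 14 in lv_Mettl3 replicate 1 and 13 in lv_Mettl3 replicate 2. Relative to the mean of the other 3 libraries on the log2 scale, the members had a median of 0.09 in lv_nc replicate 1, -0.12 in lv_nc replicate 2, 0.02 in lv_Mettl3 replicate 1 and 0.03 in lv_Mettl3 replicate 2. The lowest value was in lv_nc replicate 2 in 18 of 26 small subunit genes and 24 of 46 large subunit genes. Replicate 2 of lv_nc lay below replicate 1 in 22 small subunit genes, with a median difference of -0.23, and in 33 large subunit genes, with -0.14. The genes of the cytosolic ribosome were lower in lv_nc replicate 2 than in replicate 1 in 73 of 80 cases, with a median of -0.18. The 13 mitochondrially encoded genes were so in 13 of 13, with -0.24. Between the lv_Mettl3 replicates, replicate 2 was lower in 31 of 80 cytosolic genes, with a median of 0.03. It was lower in 10 of 13 mitochondrially encoded genes, with -0.19, so these fell from replicate 1 to replicate 2 in both groups. The members are shorter than most genes, with a median length of 1130 bases. Genes of up to 1000 bases with a mean of at least 100 had a median difference of -0.02 between the lv_nc replicates. Between the lv_Mettl3 replicates their median was 0.06. The members' median length lies above 1000 bases, so these genes do not match the members in length. The part of gene length in the replicate differences was not tested.

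**Figure D3:**
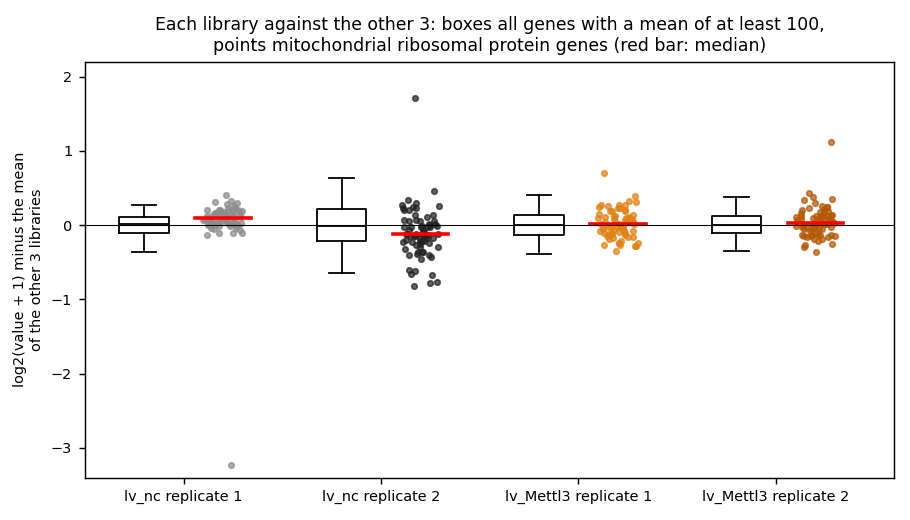
Log2(value + 1) in each library minus the mean of the other 3. Boxes show all genes with a mean of at least 100 (quartiles, whiskers at percentiles 5 and 95, points beyond them not drawn) and points show the mitochondrial ribosomal protein genes with a mean of at least 50, with their median as a red bar. The members' median lies above 0 in lv_nc replicate 1 and below 0 in lv_nc replicate 2, and near 0 in both lv_Mettl3 libraries, with Mrpl30 as the farthest point in lv_nc replicates 1 and 2 and lv_Mettl3 replicate 2.

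The direction of the members' median depended on which lv_nc library was used. Without lv_nc replicate 2 the median log2 fold change was -0.04, with 28 of 74 members positive. Without lv_nc replicate 1 it was 0.11, with 52 positive. In 33 of 74 members the sign changed when 1 of the 4 libraries was left out. Each of these fits leaves 1 library in a group, so they were read for effect sizes and not for calls.

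**Figure D4:**
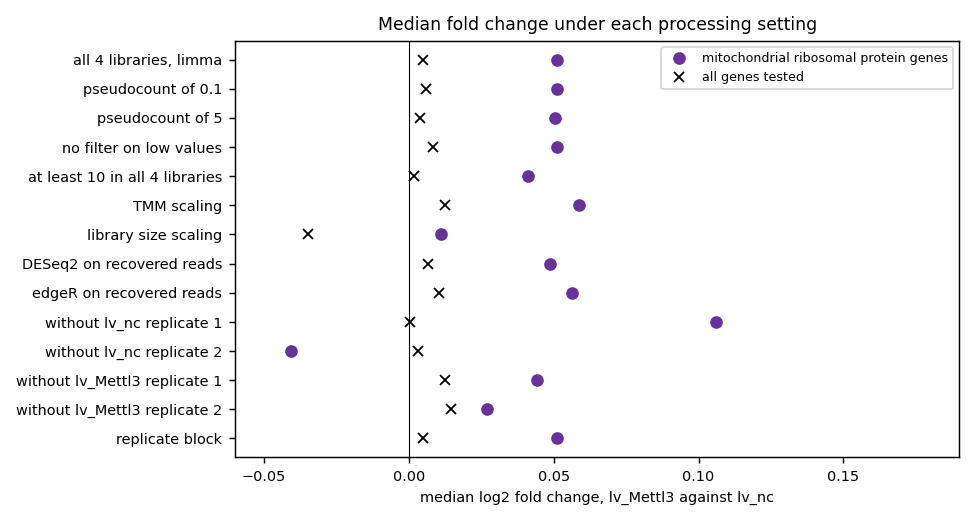
Median log2 fold change of lv_Mettl3 against lv_nc over the mitochondrial ribosomal protein genes (purple points) and over all genes tested (crosses), for the 4 libraries with limma and for 13 other settings. The members' median runs from -0.04 without lv_nc replicate 2 to 0.11 without lv_nc replicate 1, and library size scaling moves both medians down together.

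The members with a motif in the promoter were described in the same way. The 19 genes with the ETS motif had a median log2 fold change of 0.06 and the 39 without it 0.04. The 6 with the NRF1 motif had a median of -0.07, with 3 positive, against 0.05 in the 52 without it, and these 6 ran from -0.28 for Mrpl10 and Mrpl44 to 0.39 for Mrps18b. The 8 with the YY1 motif had a median of 0.13, with 7 positive, against 0.02 in the 50 without it, and none of the 8 passed the test. Longer forms of these motifs were counted before the letters given here were settled on. With the NRF1 motif flanked by G and C, 4 promoters matched and their median was 0.09, so the sign of that median depends on the letters chosen. With the YY1 motif followed by GC, 7 matched and their median was 0.14. Of the 8 genes with the shorter YY1 motif, Mrps10 had the highest value, which rests on lv_nc replicate 2 as described. Without that library the log2 fold changes were -0.14 for Mrpl37, -0.21 for Mrpl42, -0.04 for Mrpl46 and -0.07 for Mrps27. They were 0.13 for Mrpl50, 0.06 for Mrps10, 0.07 for Mrps18a and 0.04 for Mrps30. The count of 7 positive values therefore did not hold without lv_nc replicate 2.

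The remaining genes of mitochondrial translation were described in lists of 2 to 30 genes. Limma called 0 of the 109 genes tested in them, with 0.0183% of all genes called. A list of 6 genes with names outside the rule had a median log2 fold change of -0.11. Of these, 5 of 6 were lower in both lv_Mettl3 libraries, against 21.5% of all genes. The list holds ribosomal proteins and Oxa1l, an insertase of the inner membrane and not a ribosomal protein, which had its lowest value (-0.31). Of the ribosomal proteins in it, Aurkaip1 was at 2570 and 2642 in lv_nc and 2410 and 2371 in lv_Mettl3. Aurkaip1 is a small subunit protein first named as a partner of Aurora A kinase. The exception was Ptcd3, a small subunit protein with pentatricopeptide repeats, at 1691, 1032, 1867 and 1591. Another 3 ribosomal protein rows are written in lower case in the table and fall outside the rule, with log2 fold changes of 0.17 for mrpl24, 0.17 for mrpl9 and -0.13 for mrpl11, none called.

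The 30 genes for assembly of the mitochondrial ribosome had a median of 0.04, with 17 positive. The RNA helicase Dhx30 was at 2225, 2033, 2088 and 2071, and Afg3l2, a protease that matures the ribosomal protein Mrpl32, at 1302, 1513, 1397 and 1548. The 14 translation factors had a median of 0.07, with the elongation factor Tufm at 2572, 2310, 2269 and 2380 and the RNA stabilizing protein Lrpprc at 2400, 1904, 2404 and 2288. A list of 22 genes for charging transfer RNA had a median of 0.08. It holds synthetases and the amidotransferase subunits Qrsl1, Gatb and Gatc. In it, Gars was at 5014, 3815, 5315 and 4886 and Kars at 3863, 3213, 3765 and 3928. Both encode synthetases of the cytosol as well as of mitochondria, so their levels do not describe mitochondrial translation alone. The log2 fold changes of that list ran from -1.84 for Mars2 to 1.16 for Gatc, both near the floor. The groups overlapped in all 6 genes whose levels are given in this paragraph.

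The 12 genes that copy and transcribe mitochondrial DNA had a median of 0.12, with 10 positive, and all 12 were lower in lv_nc replicate 2 than in replicate 1. Their values ran from -1.55 for Mterf2 to 0.57 for Polg2. Mterf2, a gene of low level, was at 23.4 and 23.1 in lv_nc and 6.36 and 8.27 in lv_Mettl3 (limma adjusted p = 0.413). The polymerase Polg was at 2024 and 1819 in lv_nc and 2238 and 2327 in lv_Mettl3, without overlap, and the packaging and transcription factor Tfam at 867, 713, 901 and 748, with overlap. The 10 regulators of mitochondrial biogenesis had a median of 0.14, with 9 positive. They include Gabpa, the DNA-binding subunit of GABP, at 1682, 1519, 1817 and 1598, and the coactivator Pprc1 at 1654 and 1065 in lv_nc and 1815 and 1943 in lv_Mettl3 (limma adjusted p = 0.501). Myc, singled out after its values were seen as the highest fold change of that list, was at 801 and 301 in lv_nc and 1182 and 1146 in lv_Mettl3 (1.24 ± 0.45 SE, limma adjusted p = 0.471). In Pprc1 and Myc, as in Mrps2, lv_nc replicate 2 was the low library.

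The messages that this ribosome translates were also compared. The 13 mitochondrially encoded genes had a median log2 fold change of 0.14, with 9 positive. COX1, a core subunit of cytochrome c oxidase, was at 125067, 123860, 131176 and 123344, and CYTB, the cytochrome b of complex III, at 40949 and 40338 in lv_nc and 37675 and 38083 in lv_Mettl3. The groups overlapped in COX1 and not in CYTB, and neither was called.

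The ribosomal RNA of the mitochondrial ribosome has 2 rows in the table. AY172581.9, of 958 bases, was at 1203 and 1548 in lv_nc and 2193 and 2318 in lv_Mettl3. It rose by DESeq2 (log2 fold change 0.71 ± 0.18 SE, adjusted p = 0.0048), and was not called by limma (0.72, adjusted p = 0.378) or edgeR (adjusted p = 0.318). AY172581.24, of 1571 bases, was at 1922 and 1700 in lv_nc and 2177 and 2123 in lv_Mettl3 (0.25, limma adjusted p = 0.486), also without overlap, and was not called by any of the 3. AY172581.9 was the only gene called by DESeq2 among the 109 tested genes of the lists of mitochondrial translation. Over all genes DESeq2 called 2.52%. Its lowest library was lv_nc replicate 1. The labels name polyA RNA, and the series text a removal of ribosomal RNA before sequencing. The share of ribosomal RNA left after that step in each library was not tested.

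**Figure D5:**
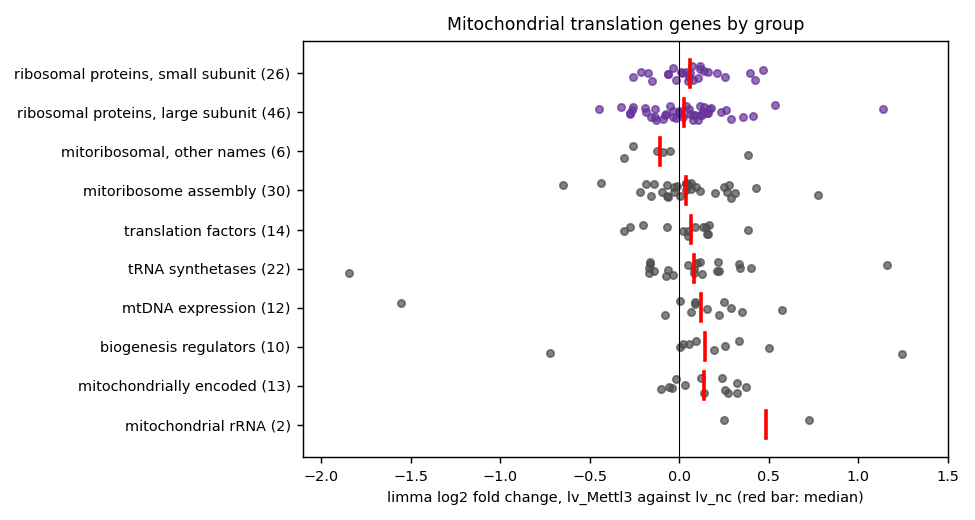
Limma log2 fold change of lv_Mettl3 against lv_nc for each tested gene of the small and large mitochondrial ribosomal subunits (purple) and of 8 other lists (grey), with the number of genes in parentheses and list medians as red bars. Medians lie between -0.11 and 0.14 in every list but the 2 ribosomal RNA rows, at 0.25 and 0.72.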

How the data were processed

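RNA of 4 libraries (2 lv_nc, 2 lv_Mettl3; groups and replicate numbers from the titles) was analysed. Per the submitters' processing notes, CASAVA 1.4 and HISAT2 were used. The read counter, genome build, annotation and strandedness: not given in the sources used here. Library columns as deposited hold a signal: gene read counts that the authors divided by 1 size factor per library (1.02, 1.08, 0.943 and 0.968). Within 0.001 reads, 100% of values were whole multiples of 1 read, and reads were recovered on that basis. The log2 fold changes and p-values deposited by the authors were not used for results.

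Limma 3.58.1 (trend, R 4.3.3) was run on log2(value + 1) for the 16391 genes reaching 1 in 2 or more libraries, and p-values were adjusted over all of them (Benjamini-Hochberg, threshold 0.05). Fold changes are on that scale, which understates low genes. DESeq2 1.42.0 and edgeR 4.0.16 on recovered reads were alternatives, beside other pseudocounts, filters and scalings, left-out libraries and a replicate block. Levels between genes are per kilobase of deposited length. Scripts were checked on simulated counts. The members and lists were chosen with earlier results of these data known. Named genes were Mettl3, called genes, the 8 highest and 8 lowest fold changes with a mean of at least 50, the 3 highest and 2 lowest per kilobase of each subunit, up to 2 per structural list, the Mrps18 paralogs, Mrps30, Mrps36 and 2 abundant genes or all called genes per list. Promoters are RefSeq entries of GRCr8, with the first listed start of each gene; the table's coordinates were not converted.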

Additional observations from a re-analysis of the deposited data

How the results depend on the processing

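With 2 libraries a group, the interval of no member lay within a 1.2-fold change. The number of members called was 0 in every alternative that kept all 4 libraries. The count over all genes was 3 with limma and 0 with a pseudocount of 0.1. It was 5 with a filter of at least 10 in all 4 libraries, 318 with DESeq2 and 5 with edgeR. The lists of mitochondrial translation had 1 called gene with DESeq2 (AY172581.9, adjusted p = 0.0048, with 0.0908 to 0.951 over its other alternatives) and 0 otherwise. The members' median log2 fold change ran from -0.041 to 0.106 and the number of positive members from 28 to 52 when 1 library was left out. With library size scaling the median was 0.011, with that of all genes at -0.035. The cause of these shifts was not tested.

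A replicate block gave 3 calls over all genes, a members' median of 0.051, 45 positive members and a smallest member adjusted p of 0.375. Replicate numbers are shared by 2 pairs only, and the difference of replicate 1 and 2 correlated at r = 0.325 between groups over 10051 genes, so the libraries share a number and are not shown to be pairs.

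Of 571 values for 44 named genes, 548 kept direction and side of the threshold and 22 reversed, in 15 genes. With library size scaling the log2 fold changes that reversed were those of Mrps24 (-0.00345), Mrps12 (-0.0235), Mrps18c (-0.0301) and COX1 (-0.00857). When 1 library was left out, the genes whose sign reversed, with their lowest and highest log2 fold change, were Mettl3 (-0.0861 to 0.0275), Mrpl30 (-0.72 to 2.99), Mrpl12 (-0.033 to 0.61), Mrps24 (-0.0698 to 0.14), Mrps5 (-0.21 to 0.0784), Mrps18c (-0.12 to 0.14), Gabpa (-0.00066 to 0.19), Tufm (-0.15 to 0.00873), Lrpprc (-0.0337 to 0.30), Kars (-0.00652 to 0.26), COX1 (-0.013 to 0.0758), Dhx30 (-0.0974 to 0.0326), Afg3l2 (-0.0408 to 0.18) and Tfam (-0.0776 to 0.20).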

Other observations

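Many of these genes start beside another gene that is read in the opposite direction. In the table's own coordinates, 16 of 74 members (21.6%) had a protein-coding neighbour on the other strand whose start lay within 1000 bases on the upstream side, against 1181 of 14850 protein-coding genes (7.95%). Mrps11 and Mrpl46, a small and a large subunit gene, start 72 bases apart and are neighbours of each other. Mrps12 starts 16 bases from Sars2, the mitochondrial seryl-tRNA synthetase, which was at 194, 191, 198 and 215 (lv_nc before lv_Mettl3, in replicate order). Mrps27 starts 67 bases from Ptcd2, a mitochondrial RNA-binding protein, at 218, 166, 214 and 189. Mrpl49 starts 156 bases from Fau, which encodes a cytosolic ribosomal protein, at 4325, 2601, 4799 and 1975, where replicates differed more than groups. Mrpl18 starts 372 bases from Tcp1, a subunit of the cytosolic chaperonin, at 4717, 3398, 4877 and 4373, with the low value again in lv_nc replicate 2. Mrpl32 starts 192 bases from the proteasome gene Psma2, at 3221, 3326, 3312 and 3317. Of the 16 neighbours, limma and DESeq2 each called 0, with 0.0183% and 2.52% of all genes called. The log2 fold change had the same sign as that of the member beside it in 9 of the 16. Mrps11 and Mrpl46 each count as a neighbour there, and the share of equal signs in other gene pairs was not tested.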
